A study of Mus musculus with 26 samples.

Results

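The regional comparison in Fbn1 mutant mice set the ascending against the descending aorta within untreated Fbn1 C1041G/+ animals. Its 8 libraries were every untreated library whose labels give the C1041G/+ genotype: 4 of ascending and 4 of descending aorta, out of 26 libraries in the series. The number in the library name (2, 4, 6 and 8) joins an ascending and a descending library, and is called a mouse below. The study sequenced bulk RNA of aortic tissue from male mice. Besides these 8 libraries it holds 8 of wild-type littermates (4 per region) and 10 of ascending aorta from C1041G/+ mice given an antisense oligonucleotide, 5 labelled AGT-ASO and 5 labelled control ASO. All 8 libraries compared here carry the same heterozygous allele and no treatment, so the allele is shared by both sides of the comparison. The sources used here do not state the age of the mice or the level at which the aorta was cut, and nothing in the labels states that each number is 1 animal. If the numbers are not separate animals, the p-values measure only the spread between these samples.

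Fibrillin-1, the product of Fbn1, builds the microfibrils that surround elastin in the aortic wall, and heterozygous C1041G mice are used as a model of Marfan syndrome, in which the aortic root and the ascending aorta widen. Smooth muscle cells of the ascending aorta arise from the cardiac neural crest and the second heart field, whereas those of the descending aorta arise from the somites. Hox genes encode transcription factors that are switched on in order along the head-to-tail axis, so that members with higher numbers start further back.

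The 4 ascending libraries held 18534146 to 23959303 counts and the 4 descending libraries 17678343 to 20777613. Of 191 genes named here, 57 have exons that overlap a gene on the opposite strand, and reads of such pairs cannot be told apart if counting ignored strand. Levels below are in CPM, the count of a gene scaled to the size of its library, here with TMM factors. Values per library are listed for mice 2, 4, 6 and 8 in that order, and those of wild-type mice for mice 1, 3, 5 and 7. Errors of a mean level are standard deviations (SD, n = 4). Errors of a log2 fold change (ascending over descending) are standard errors worked back from the fold change and the F statistic of the paired fit. The tissue was checked on a smooth muscle marker: Acta2, smooth muscle actin, was at 13490 ± 1590 against 13520 ± 1468 CPM. In a principal component plot of the 8 libraries, the first component (54.9% of the variance) separated the regions. The second component (13.3%) separated mice 2 and 4 from mice 6 and 8 in both regions. Both libraries of mouse 2 held more of the thymus markers than the other libraries of their region, and the counts of lymphocyte and thymus markers are also given without that mouse.

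Of 15645 genes that passed the count filter, 2321 (14.8%) differed between the regions at an adjusted p under 0.05 in the paired edgeR fit. Of these, 1416 were higher in the ascending aorta (9.05% of the genes tested) and 905 in the descending aorta (5.78%). At least 2-fold differences were called in 718 genes higher in the ascending aorta (4.59%) and in 260 higher in the descending aorta (1.66%). The direction was the same in all 4 mice for 2284 of the 2321 genes. The 4 ascending and the 4 descending libraries did not overlap for 2256 genes tested (14.4%), of which 1622 were called. The median log2 fold change over all genes tested was -0.01. The share called in each gene list below is to be read beside the 14.8% of all genes tested. These are RNA levels of bulk tissue, in which fewer cells of a type and less RNA per cell cannot be told apart. Without mouse 2 the number of genes higher in the descending aorta was 582, and without mouse 4 it was 595. The fit without the replicate block called 549 genes higher in the descending aorta.

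**Figure D1:**
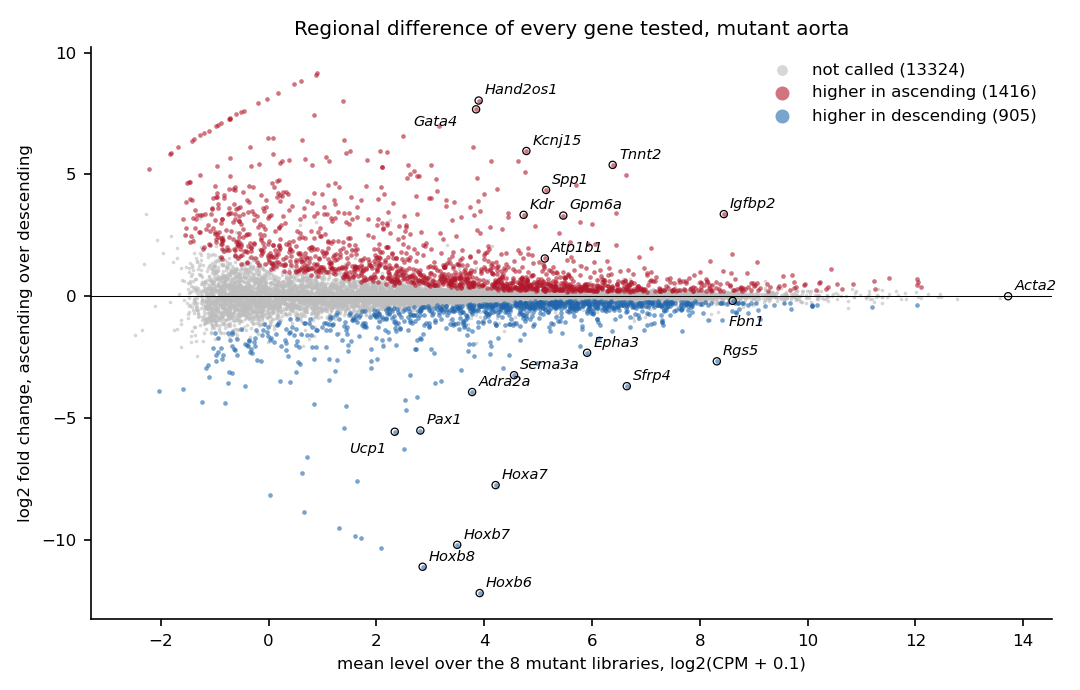
Each point is 1 of the 15645 genes tested. The horizontal axis is the mean level over the 8 mutant libraries on a log2(CPM + 0.1) scale, and the vertical axis is the fitted log2 fold change, ascending over descending. Red points were called higher in the ascending aorta (1416), blue points higher in the descending aorta (905), and grey points were not called. Circled genes are named in the text. Hox genes lie at the bottom, and Acta2 and Fbn1 lie close to 0. The fitted fold change of a gene with no counts in 1 region depends on the model's prior count.

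The Hox genes held the largest differences, and all of those called were higher in the descending aorta. Of 39 Hox genes, 23 passed the count filter. Of these, 18 were higher in the descending aorta (78.3% called), 0 in the ascending aorta and 5 did not pass the test. The ascending count was 1 without mouse 6 and with no count filter. Their median log2 fold change was -5.41, also with the genes that had no ascending counts set at their bound. The 16 other Hox genes had at most 6 counts in any of the 8 libraries, and 12 of them had none.

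Many members had no or almost no reads in the ascending aorta and a clear level in the descending aorta. Hoxb6 had 0 counts in all 4 ascending libraries and 28.6, 35, 27.8 and 28.7 CPM in the descending libraries, which is at least 802-fold higher against a floor of 3 counts over the ascending group. Hoxb8 had 0 counts in the ascending aorta and 11.5, 17.4, 14.5 and 13.9 CPM in the descending aorta, at least 383-fold higher. The same pattern of 0 ascending counts held for Hoxc6 (at least 222-fold), Hoxc8 (169-fold), Hoxb9 (156-fold), Hoxc4 (78.5-fold) and Hoxc5 (48.9-fold), each number being the lowest fold that the floor allows. Floors and intervals of this kind rest on counts pooled over the 4 libraries of a region, so they leave out the spread between mice. They treat each read as independent, and the labels name no molecular identifiers that would mark duplicate reads. In none of these genes did the regions overlap. Hoxb7 had 1 ascending count against 1671 descending counts, a ratio of 1792 with an exact 95% interval of 321 to 70810. Hoxa6 had 2 against 227 counts, a ratio of 122 (33.3 to 1011). Hoxa7 was at 0.0854, 0.272, 0.164 and 0.15 CPM in the ascending and at 29.3, 37.2, 40.6 and 39.6 CPM in the descending libraries, with a log2 fold change of -7.75 ± 0.24 (adjusted p = 1.3e-10). Its exons overlap those of the opposite-strand transcript Hoxaas3. Hoxb5, Hoxa9 and Hoxa10 were likewise near 0 in the ascending aorta, at 0.139 ± 0.0815, 0.11 ± 0.0663 and 0.155 ± 0.152, and reached 11.1 ± 2.6 CPM, 4.96 ± 1.03 CPM and 3.23 ± 0.477 CPM in the descending aorta.

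Hoxa2, Hoxa3, Hoxa4, Hoxa5, Hoxb2, Hoxb3, Hoxb4, Hoxd8 and Hoxd9 were read in both regions. Hoxa5 was at 7, 8.81, 5.73 and 5.51 CPM in the ascending and 27.2, 32.6, 27.7 and 24.8 CPM in the descending libraries (log2 fold change -2.06 ± 0.12, adjusted p = 2.1e-08). Hoxb4 (-1.10 ± 0.16), Hoxb3 (-1.07 ± 0.18), Hoxb2 (-1.01 ± 0.16) and Hoxd8 (-1.53 ± 0.31) were also higher in the descending aorta, by log2 fold changes of about the size of a doubling or somewhat more. Members that did not pass included Hoxa2 (-0.20 ± 0.14), Hoxa3 (-0.17 ± 0.09), Hoxa4 (-0.56 ± 0.21) and Hoxd9 (-1.01 ± 0.42). The remaining member that did not pass leaned to the ascending aorta, with a log2 fold change of 0.64, and is not named here. Among the genes of the Meis and Pbx families, whose products bind DNA together with Hox proteins, Meis2 was higher in the ascending aorta (51.2 ± 5.51 against 34.7 ± 3.72 CPM, log2 fold change 0.56 ± 0.06).

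**Figure D2:**
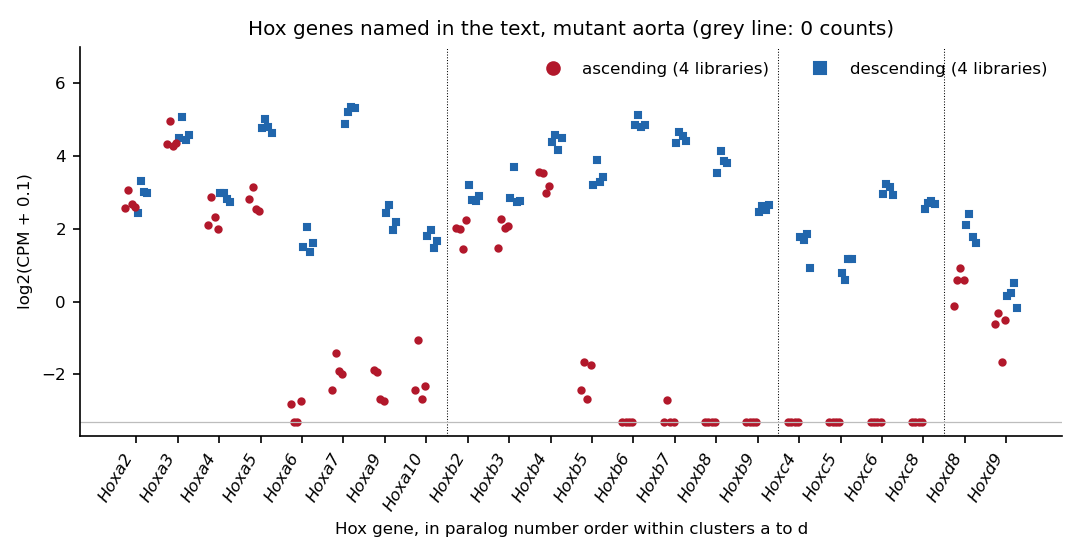
Levels of the Hox genes named in the text, on a log2(CPM + 0.1) axis. Each point is 1 library (red circles, 4 ascending; blue squares, 4 descending), genes are ordered by number within clusters a to d, and the grey line marks 0 counts. The ascending points of Hoxb6, Hoxb8, Hoxb9, Hoxc4, Hoxc5, Hoxc6 and Hoxc8 lie on that line, while those of Hoxa2 to Hoxa5 and Hoxb2 to Hoxb4 are above it in both regions.

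Transcription factors of the heart field and the outflow tract leaned to the ascending aorta but were called in both directions. The share called was 76%, against 14.8% of all genes tested. Of 25 tested, 14 were higher in the ascending and 5 in the descending aorta, with a median log2 fold change of 1.32. Gata4, a zinc finger factor of heart development, was at 27.2, 25.2, 31.8 and 29.8 CPM in the ascending and at 0.337, 0.0567, 0.0534 and 0.0974 CPM in the descending libraries (log2 fold change 7.67 ± 0.24, adjusted p = 1.0e-10). Hand2, a helix-loop-helix factor of the heart and branchial arches, was at 52.5 ± 2.71 against 1.53 ± 0.549 CPM (5.11 ± 0.21), and its opposite-strand neighbour Hand2os1 was at 29.5 ± 2.5 against 0.106 ± 0.0752 CPM. The exons of this pair overlap on opposite strands. Tcf21, a factor of the epicardium and its derivatives, was at 27.3 ± 2.25 against 0.378 ± 0.208 CPM (6.13 ± 0.23). Wt1, the Wilms tumour factor, which is also on the mesothelial list, was at 12.8 ± 1.79 against 0.411 ± 0.161 CPM (4.93 ± 0.21), and Gata5 at 5.43 ± 1.28 against 0.0796 ± 0.0927 CPM (5.95 ± 0.43). In all of these the lowest ascending library lay above the highest descending library. Gata6 (0.07 ± 0.06) and Foxc2 (-0.09 ± 0.08), both well above the filter, did not pass the test. The forkhead gene Foxf2 was higher in the descending aorta, at 0.171, 0.218, 0.164 and 0.2 CPM against 2.25, 2.27, 2.3 and 2.1 CPM.

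The promoters of 4 of these factors are shown, because their RNA differed between the regions without overlap in all 4 and because their RefSeq start lies on the start of the GENCODE gene. Each line is the 200 bases before the start, 5′ to 3′ on the gene's strand, from RefSeq on GRCm38.p6. Capitals mark any match, on either strand, to a GATA motif (AGATAA), a Hox and Pbx motif (TGATNNAT), an E-box (CAGCTG), a T-box motif (AGGTGT) or a TATA box (TATAAA).
Hoxa5 (chr6:52204588-52204787, minus strand): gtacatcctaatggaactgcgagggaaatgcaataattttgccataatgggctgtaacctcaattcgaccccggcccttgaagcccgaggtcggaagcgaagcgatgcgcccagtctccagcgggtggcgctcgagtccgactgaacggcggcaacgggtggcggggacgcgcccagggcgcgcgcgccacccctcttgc
Hoxa10 (chr6:52240855-52241054, minus strand): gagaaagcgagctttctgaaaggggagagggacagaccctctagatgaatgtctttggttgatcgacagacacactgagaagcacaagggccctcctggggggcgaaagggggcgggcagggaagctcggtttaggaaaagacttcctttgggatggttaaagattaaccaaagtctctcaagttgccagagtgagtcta
Hoxb8 (chr11:96281705-96281904, plus strand): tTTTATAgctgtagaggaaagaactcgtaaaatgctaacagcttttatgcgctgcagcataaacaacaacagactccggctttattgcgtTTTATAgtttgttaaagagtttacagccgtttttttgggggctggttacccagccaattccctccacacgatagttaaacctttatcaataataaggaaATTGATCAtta
Hand2 (chr8:57320783-57320982, plus strand): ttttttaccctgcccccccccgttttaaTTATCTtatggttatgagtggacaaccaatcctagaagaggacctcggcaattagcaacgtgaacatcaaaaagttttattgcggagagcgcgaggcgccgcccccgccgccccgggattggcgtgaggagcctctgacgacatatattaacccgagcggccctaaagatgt
Hoxb8 held 1 Hox and Pbx motif and 2 TATA boxes, Hand2 held 1 GATA motif, and the windows of Hoxa5 and Hoxa10 held none of the 5 motifs. Over 32505 distinct windows of the same length, 7.81% held the GATA motif, 5.86% the Hox and Pbx motif, 10.9% the E-box, 9.36% the T-box motif and 9.88% the TATA box. GC content was 37.5% for Hoxb8, 51.5% for Hoxa10, 52.5% for Hand2 and 63.5% for Hoxa5, against a median of 53%. A match is a description of the letters and not a binding site.

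Of 19 neural crest and mesenchyme transcription factors tested, 9 were higher in the ascending and 5 in the descending aorta (73.7% called). Their median log2 fold change was 0.46. Without mouse 4 or mouse 6 the descending count was 3, and without mouse 8 it was 2. Msx1, a homeobox gene of the neural crest, was at 21.9 ± 1.36 against 10.1 ± 1.05 CPM (1.12 ± 0.11), Six2 at 3.83 ± 0.675 against 0.463 ± 0.324 CPM (3.10 ± 0.40) and Tfap2a at 1.04 ± 0.391 against 0.0831 ± 0.0555 CPM (3.56 ± 0.56). Eya4, a coactivator of the eyes absent family, was at 6.15 ± 1.58 against 2.63 ± 0.559 CPM. Prrx1, a mesenchymal homeobox gene, was higher in the descending aorta, at 86, 89.1, 121 and 128 CPM in the ascending and 163, 184, 248 and 235 CPM in the descending libraries (log2 fold change -0.97 ± 0.08, adjusted p = 1.0e-06). Outside the list, Eya2 (-3.23 ± 0.17) was also higher there. Pax1, a paired box factor of the sclerotome of the somites, went from 0.683, 0.272, 0.0546 and 0.1 CPM in the ascending to 12, 15.6, 13.5 and 13.3 CPM in the descending libraries, with no overlap (log2 fold change -5.51 ± 0.41, adjusted p = 4.4e-06).

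Retinoic acid is made from vitamin A and sets position along the body axis. In its pathway 6 of 19 genes tested were higher in the ascending and 1 in the descending aorta (median 0.08, 36.8% called). The descending count of this list was 2 without mouse 1, 3 without mouse 2 and 0 without mouse 4, 6 or 8. Aldh1a2, the main synthesizing enzyme of the embryo, was at 28.6, 21.5, 16.6 and 18.3 CPM against 2.36, 1.87, 2.88 and 1.75 CPM (log2 fold change 3.24 ± 0.17, adjusted p = 1.2e-08). Aldh1a1, a related enzyme, was at 113 ± 12.1 against 41.7 ± 4.49 CPM (1.44 ± 0.19), and Stra6, the receptor that takes up retinol, at 2.3 ± 0.633 against 0.692 ± 0.382 CPM (1.78 ± 0.31). Lrat, which stores retinol as esters, had 0 descending counts and 14 to 53 counts in the ascending libraries, at least 43.8-fold higher. Cyp26a1, which breaks retinoic acid down, was at 0.715 ± 0.525 against 0.0529 ± 0.0437 CPM (3.60 ± 0.71). Aldh1a2 is also a mesothelial marker, and that list moved in the same direction.

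Most smooth muscle contractile genes did not pass the test, although the share called (20%) was above that of all genes (14.8%). Of 40 tested, 4 were higher in each region and 32 did not pass, with a median log2 fold change of -0.04 beside -0.01 over all genes. Acta2 was at 12680, 15680, 13580 and 12040 CPM in the ascending and at 14390, 15030, 11790 and 12860 CPM in the descending libraries, which overlapped fully (log2 fold change 0.00 ± 0.10; its sign turned under several other settings). Filamin A (Flna) gave -0.13 ± 0.11 (adjusted p = 0.49). Exceptions were Des, the intermediate filament protein desmin, at 138, 142, 141 and 132 CPM against 72.5, 72.6, 57.9 and 59.9 CPM (log2 fold change 1.08 ± 0.08, adjusted p = 3.8e-07), and Pln, phospholamban, which restrains the calcium pump, at 12.1 ± 3.87 against 1.89 ± 0.434 CPM (2.64 ± 0.29). Both are also made by heart muscle, whose markers were higher in the same libraries. Cacna1c, the L-type calcium channel, was higher in the descending aorta (-0.48 ± 0.09). The descending count of this list was 1 without mouse 2 and 2 without mouse 4 or mouse 8. Outside the list, Mylk2, a myosin light chain kinase best known from skeletal muscle, was at 1.45, 2.18, 0.982 and 1.35 CPM in the ascending and 15, 21.4, 16.2 and 14 CPM in the descending libraries (log2 fold change -3.48 ± 0.13, adjusted p = 4.3e-10).

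Fbn1 itself did not pass the test. It was at 348, 337, 383 and 386 CPM in the ascending and 391, 352, 507 and 423 CPM in the descending libraries, higher in the descending library of each of the 4 mice (log2 fold change -0.19 ± 0.09, adjusted p = 0.17), and the regions overlapped. Counts per gene do not separate the mutant from the normal allele. Of 28 elastic fibre genes tested, 12 were higher in the ascending and 5 in the descending aorta (median 0.17, 60.7% called). The descending count was 3 without mouse 6 or mouse 8. Eln, elastin, did not pass (0.11 ± 0.09, adjusted p = 0.51). Efemp1, fibulin-3, was at 124, 121, 95.9 and 92.5 CPM against 25.4, 18.9, 28.5 and 24.8 CPM (log2 fold change 2.15 ± 0.13, adjusted p = 3.8e-07). Fbln5, fibulin-5, which assembles elastic fibres, was at 954, 864, 980 and 1019 CPM against 538, 475, 547 and 595 CPM (0.83 ± 0.08, adjusted p = 7.8e-06). Both sets of libraries were apart in each gene. The microfibril-associated protein gene Mfap4 (463 ± 12.3 against 224 ± 18.5 CPM) and the latent TGF-beta binding protein gene Ltbp2 (172 ± 1.9 against 78.3 ± 10.6 CPM) were also higher in the ascending aorta. In the other direction, Hmcn2, hemicentin-2, was at 4.66, 6.26, 3.71 and 3.96 CPM against 29, 29.5, 48.1 and 37.7 CPM (log2 fold change -2.93 ± 0.26, adjusted p = 6.1e-05) and Fbln7 at 21.5 ± 1.75 against 88.2 ± 11.2 CPM (-2.03 ± 0.22). Hmcn1, the other hemicentin, was higher in the ascending aorta, at 8.41 ± 2.71 against 2.41 ± 0.904 CPM.

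Collagen chain genes went both ways. Of 37 tested, 7 were higher in the ascending and 6 in the descending aorta (median 0.04, 35.1% called). The ascending count was 4 without mouse 4, and the descending count 3 without mouse 6. The 3 main chains of beaded collagen VI were all higher in the descending aorta: Col6a1 at 353 ± 39.1 against 500 ± 39.9 CPM (-0.51 ± 0.07), Col6a2 at 366 ± 31.8 against 587 ± 45.1 CPM (-0.68 ± 0.07) and Col6a3 at 314 ± 35.5 against 500 ± 69.3 CPM (-0.67 ± 0.08). Col6a2 lay between 323 and 394 CPM in the ascending and between 533 and 636 CPM in the descending libraries. Col8a1, a short-chain collagen of remodelling vessels, was higher in the ascending aorta (67.9 ± 10.3 against 24.3 ± 3.24 CPM, 1.48 ± 0.21), as was Col27a1 (25.8 ± 4.57 against 14.3 ± 2.39 CPM, 0.85 ± 0.09). Col1a2, a fibrillar chain, gave -0.26 ± 0.13 and did not pass (adjusted p = 0.23).

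**Figure D3:**
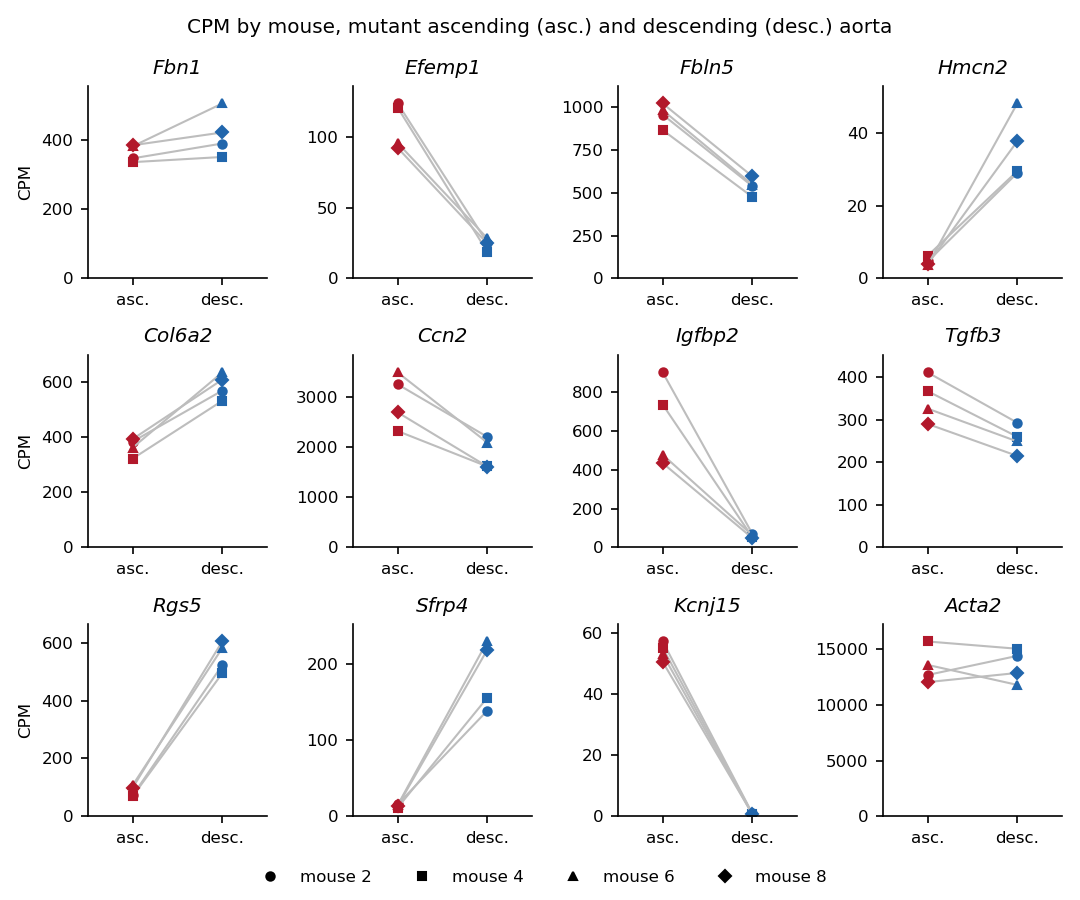
CPM of 12 genes in the 4 mutant mice. Each grey line joins the ascending and the descending library of 1 mouse, the marker shape gives the mouse, and every vertical axis starts at 0. Fbn1 was higher in the descending library of each mouse but its ranges overlapped, Acta2 had no shared direction, and the 10 other genes had the same direction in all 4 mice.

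Proteoglycan genes leaned to the ascending aorta, with 10 of 32 tested higher there and 2 in the descending aorta (median 0.20, 37.5% called). The ascending count was 5 without mouse 2, 6 without mouse 4 and 4 without mouse 6, and the descending count was 0 without mouse 2 and 1 without mouse 4. Acan, aggrecan, a large chondroitin sulfate proteoglycan, was at 119, 127, 112 and 131 CPM against 63.8, 62.5, 55.3 and 55.9 CPM (log2 fold change 1.05 ± 0.08, adjusted p = 8.5e-07). Bgn, biglycan, was at 5008 ± 83 against 3834 ± 155 CPM (0.39 ± 0.08), Sdc3, a syndecan of the cell surface, at 177 ± 23.6 against 58.5 ± 6.23 CPM (1.59 ± 0.19) and Spock2 at 61.8 ± 11.1 against 36.1 ± 2.08 CPM (0.76 ± 0.14). Epyc, epiphycan, a small leucine-rich proteoglycan on the cartilage list, was at 11.1, 9.47, 14.4 and 12.2 CPM in the ascending and 0.394, 0.17, 0.48 and 0.39 CPM in the descending libraries (log2 fold change 5.02 ± 0.19, adjusted p = 2.9e-10). Of the 16 cartilage markers tested, Epyc and Acan among them, 8 were higher in the ascending and 0 in the descending aorta (50% called). The ascending count was 5 without mouse 6. The summed level of the list was 213 to 290 CPM in the ascending and 173 to 213 CPM in the descending libraries.

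Matricellular genes, whose secreted products act on cells within the matrix, went both ways. Of 25 tested, 6 were higher in the ascending and 8 in the descending aorta (median 0.15, 56% called). The descending count was 5 without mouse 4 and 4 without mouse 6 or mouse 8. Ccn2, connective tissue growth factor, was at 3251, 2319, 3487 and 2691 CPM against 2204, 1614, 2091 and 1613 CPM (log2 fold change 0.64 ± 0.08, adjusted p = 3.4e-05). Ccn3 was at 3640 ± 112 against 2197 ± 161 CPM (0.73 ± 0.09), Postn, periostin, at 5095 ± 296 against 3432 ± 263 CPM (0.57 ± 0.10) and Sparcl1 at 772 ± 143 against 291 ± 49.9 CPM (1.40 ± 0.13). Spp1, osteopontin, was at 182, 45.7, 21.8 and 23.5 CPM in the ascending and 2.53, 2.49, 2.24 and 2.48 CPM in the descending libraries, so that mouse 2 held most of the ascending reads, and the other 3 mice had the same direction. Tnxb, tenascin-X, was higher in the descending aorta (189 ± 52 against 378 ± 116 CPM, -0.99 ± 0.08), as were Tnc, tenascin-C (106 ± 13.6 against 178 ± 21.8 CPM, -0.75 ± 0.10), and the low-level Tnr (0.274 ± 0.13 against 2.36 ± 0.781 CPM). Among the matrix proteases and their inhibitors 6 of 40 were higher in the ascending and 7 in the descending aorta (median 0.04, 32.5% called). Mmp12 (6.24 ± 1.39 against 1.75 ± 0.923 CPM) and Mmp13 (3.27 ± 1.15 against 0.812 ± 0.262 CPM) were higher in the ascending aorta, and Mmp17 (149 ± 14.2 against 199 ± 16.7 CPM) and the inhibitor gene Timp4 (7.77 ± 1.68 against 16.4 ± 4.84 CPM) in the descending aorta.

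In the TGF-beta pathway 7 of 28 genes were higher in the ascending and 2 in the descending aorta (median -0.02, 32.1% called). The descending count was 0 to 1 without mouse 1, 4, 6 or 8. The ligand gene Tgfb3 was at 411, 367, 326 and 290 CPM against 293, 260, 249 and 215 CPM, higher in each of the 4 mice although the ranges overlapped (log2 fold change 0.45 ± 0.06, adjusted p = 0.00019). Tgfb2 (129 ± 25.7 against 90.1 ± 22.2 CPM, 0.53 ± 0.08) and Tgfb1 (53.2 ± 4.67 against 42.2 ± 3.3 CPM, 0.33 ± 0.06) showed the same direction, and neither was called without the replicate block. The activin subunit genes Inhba (253 ± 26.3 against 175 ± 13.5 CPM, 0.53 ± 0.07) and Inhbb (25.1 ± 4 against 12.3 ± 3.95 CPM, 1.06 ± 0.12) were also higher in the ascending aorta. In the BMP pathway 6 of 37 were higher in the ascending and 8 in the descending aorta (median -0.11, 37.8% called). Secreted antagonists were among those higher in the descending aorta: Chrdl1, chordin-like 1, at 34, 38.5, 31.5 and 31.9 CPM against 71.8, 70.9, 88.6 and 83.5 CPM (-1.21 ± 0.14, adjusted p = 0.00017), and Nog, noggin, at 0.328 ± 0.173 against 2.45 ± 1.1 CPM (-2.79 ± 0.44). Of the ligands, Bmp6 was higher in the descending aorta (130 ± 18.3 against 218 ± 15.5 CPM, -0.75 ± 0.11), and Bmp3 (31.7 ± 6.97 against 14.6 ± 2.42 CPM) and Bmp7 (1.28 ± 0.717 against 0.336 ± 0.164 CPM) in the ascending aorta. Gdf2, which encodes the ligand BMP9 and was not on the list, was at 5.17, 5.55, 4.48 and 5.01 CPM in the ascending and 0, 0.0567, 0.16 and 0 CPM in the descending libraries (log2 fold change 6.40 ± 0.46, adjusted p = 2.7e-07).

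Wnt pathway genes numbered 13 higher in the ascending and 8 in the descending aorta of 45 tested (median 0.07, 46.7% called). The descending count was 5 without mouse 6. Among ligands, Wnt16 was at 186, 182, 156 and 142 CPM against 88.9, 112, 86.2 and 78.8 CPM (0.87 ± 0.09, adjusted p = 9.5e-06), and Wnt4 (5.28 ± 3.07 against 0.294 ± 0.139 CPM) and Wnt9b (8.89 ± 6.23 against 0.133 ± 0.0522 CPM) were near 0 in the descending aorta. Rspo1, an R-spondin that boosts Wnt signals and a mesothelial marker, was at 24.7 ± 5.98 against 1.88 ± 0.565 CPM (3.68 ± 0.27). The secreted antagonist Sfrp4 was at 15.9, 11.7, 15 and 13.9 CPM in the ascending and 139, 156, 230 and 219 CPM in the descending libraries (log2 fold change -3.69 ± 0.19, adjusted p = 1.1e-06), and the receptor Fzd4 was also higher in the descending aorta (131 ± 8.69 against 194 ± 16.7 CPM, -0.57 ± 0.07). In the Notch pathway 2 of 20 were higher in the ascending and 6 in the descending aorta (median -0.10, 40% called). The ligand Dll4 (3.3 ± 0.128 against 7.11 ± 1.63 CPM, -1.08 ± 0.16), the receptor Notch4 (20.2 ± 6.79 against 34.6 ± 1.43 CPM) and the glycosyltransferase Mfng (8.89 ± 1.47 against 14.3 ± 1.92 CPM) were higher in the descending aorta, and the ligand Jag2 (17 ± 1.03 against 10 ± 2.77 CPM) in the ascending aorta.

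Of 30 FGF and PDGF pathway genes, 11 were higher in the ascending and 1 in the descending aorta (median 0.13, 40% called). The ascending count was 7 without mouse 2. Fgf2 was at 241, 276, 264 and 263 CPM against 171, 184, 157 and 167 CPM (0.62 ± 0.07, adjusted p = 2.4e-05). Fgf10 (2.73 ± 0.581 against 0.219 ± 0.128 CPM) and Fgf9 (4.3 ± 0.901 against 0.381 ± 0.201 CPM), ligands of heart and lung development, were near 0 in the descending aorta. Spry1, a feedback inhibitor of these receptors, was at 53.4 ± 1.42 against 27.1 ± 3.99 CPM (0.99 ± 0.10), and the receptor Fgfr2 was higher in the descending aorta (128 ± 14.3 against 193 ± 17.4 CPM, -0.59 ± 0.10). In the IGF axis 8 of 15 were higher in the ascending and 1 in the descending aorta (median 0.45, 60% called). Igfbp2, whose product carries IGF in tissue fluid, was at 903, 737, 478 and 435 CPM in the ascending and 71.3, 53.6, 63.8 and 49 CPM in the descending libraries (log2 fold change 3.37 ± 0.17, adjusted p = 7.3e-07). Its lowest ascending library was several times its highest descending library. Igfbp3 (34.8 ± 2.9 against 5.3 ± 1.71 CPM, 2.74 ± 0.22), Igfbp5 (1406 ± 55.7 against 963 ± 175 CPM, 0.56 ± 0.11), Igfbp7 (4834 ± 408 against 3539 ± 96.4 CPM, 0.45 ± 0.08) and Stc2, an inhibitor of the proteases that free IGF from its carriers (27.1 ± 5.62 against 6.43 ± 1.1 CPM, 2.07 ± 0.16), followed the same direction. Pappa2, such a protease, was higher in the descending aorta (1.86 ± 0.666 against 6.55 ± 2.65 CPM, -1.79 ± 0.25). It was the only descending call of the list, and the count was 2 without mouse 3 or mouse 7.

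The renin-angiotensin system was of interest because the study treated mutant mice with AGT-ASO. Of 14 genes tested, 3 were higher in the ascending and 2 in the descending aorta (median 0.06, 35.7% called). Ren1, renin, was at 12.6, 12.1, 24.8 and 12.2 CPM in the ascending and 0.506, 0.227, 0.641 and 0.0974 CPM in the descending libraries (log2 fold change 5.40 ± 0.35, adjusted p = 6.9e-07). Ace, the angiotensin-converting enzyme, was at 692, 740, 710 and 703 CPM against 545, 490, 559 and 587 CPM (0.39 ± 0.08, adjusted p = 0.0047). Enpep, which degrades angiotensin II, was higher in the descending aorta (30.3 ± 1.69 against 54.9 ± 5.28 CPM, -0.86 ± 0.10). The receptor genes were low. Agtr1a was at 2.78, 3.48, 4.91 and 4.11 CPM against 2.53, 1.19, 2.19 and 2.24 CPM (0.91 ± 0.23, adjusted p = 0.014), a call lost without mouse 4 (adjusted p = 0.083) or mouse 6 (0.083). Agtr1b showed the reverse, at 0.427, 0.435, 0.655 and 0.401 CPM against 1.97, 2.44, 3.63 and 3.65 CPM (-2.57 ± 0.31, adjusted p = 4.0e-05). Agt, angiotensinogen, and Agtr2 did not pass the count filter. Agt had 16 ascending and 51 descending counts in all (exact permutation test of CPM, two-sided, p = 0.057, adjusted over 21 genes so tested to 1), and Agtr2 had 16 and 12 (p = 0.74). The smallest p that this exact test allows with 4 against 4 libraries is 0.029. Of the 21 genes, 12 were Hox genes with no counts in the 8 libraries, so no gene could pass after adjustment. The adjusted value therefore decides nothing for Agt. On a list of genes known to respond to angiotensin II, 9 of 22 were higher in the ascending and 2 in the descending aorta. The list had a median of 0.41 with 50% called, and its descending count was 1 without any 1 of the 4 mutant mice. Rcan1, a calcineurin regulator (169 ± 43.9 against 104 ± 17.5 CPM, 0.67 ± 0.10), and Ereg, epiregulin (33.7 ± 3.38 against 21.4 ± 1.2 CPM, 0.65 ± 0.11), were on it beside Ccn2 and Spp1.

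Receptors and regulators of vascular tone went both ways. Of 58 vasoactive receptor and cyclic GMP genes, 14 were higher in the descending and 8 in the ascending aorta (median 0.01, 37.9% called). Without the replicate block these counts were 8 and 6. Adra2a, an alpha-2 adrenergic receptor gene, was at 0.854, 1.52, 2.62 and 1.8 CPM in the ascending and 16.4, 31.2, 29.1 and 25.3 CPM in the descending libraries (log2 fold change -3.93 ± 0.16, adjusted p = 8.0e-10). Adra1d, an alpha-1 adrenergic receptor of large arteries, was at 20.1, 32.7, 21.9 and 21.9 CPM against 49.9, 71.5, 39.7 and 51.5 CPM (-1.14 ± 0.11, adjusted p = 1.5e-05). The vasopressin receptor Avpr1a (0.994 ± 0.487 against 6.23 ± 1.81 CPM, -2.65 ± 0.31) and the prostaglandin receptor Ptger3 (1.34 ± 0.296 against 5.96 ± 0.975 CPM, -2.16 ± 0.22) were also higher in the descending aorta. The thrombin receptor F2r (164 ± 11.7 against 107 ± 9.95 CPM, 0.61 ± 0.07) was higher in the ascending aorta. Chrm2, the muscarinic receptor of the heart, had 0 descending counts and was at least 70.3-fold higher in the ascending aorta.

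RGS proteins switch off G protein signals. Of 16 RGS genes tested, 5 were higher in the descending and 1 in the ascending aorta (median -0.23, 37.5% called). The ascending count was 0 without mouse 2 or mouse 6. Rgs5, a marker of pericytes and arterial smooth muscle, was at 72.6, 69.8, 108 and 99.2 CPM in the ascending and 522, 494, 581 and 604 CPM in the descending libraries (log2 fold change -2.67 ± 0.10, adjusted p = 2.9e-10). Rgs7 (15 ± 2.05 against 31.7 ± 4.08 CPM, -1.08 ± 0.09) and Rgs17 (11.3 ± 2.26 against 25.9 ± 3.55 CPM, -1.20 ± 0.12) followed. Of 47 potassium channel genes, 8 were higher in the ascending and 10 in the descending aorta (median -0.14, 38.3% called). The descending count was 6 without mouse 2. Kcnj15, an inward rectifier, was at 57.2, 55.1, 53 and 50.5 CPM in the ascending and 1.01, 0.85, 0.747 and 0.828 CPM in the descending libraries (log2 fold change 5.96 ± 0.18, adjusted p = 2.9e-10). The regions were far apart in every mouse. Its exons overlap the opposite-strand model Gm49643. Kcne4 (92.3 ± 6.52 against 52.1 ± 8.45 CPM) and Kcnd2 (1.31 ± 0.342 against 0.0542 ± 0.0755 CPM) were higher in the ascending aorta. Kcnq3 (2.36 ± 0.827 against 10.5 ± 2.11 CPM), Kcns3 (3.66 ± 1.17 against 10.7 ± 2.93 CPM) and Kcnj8, the pore of the vascular ATP-sensitive channel (38.5 ± 5.14 against 61 ± 16 CPM), were higher in the descending aorta.

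Guidance and ephrin genes, which steer axons and vessels, differed in both directions. Of 62 tested, 15 were higher in the ascending and 13 in the descending aorta (median 0.07, 45.2% called). The descending count was 8 without mouse 6 and 7 without mouse 8. Sema3a was at 6.49, 3.32, 4.86 and 3.3 CPM in the ascending and 51.3, 29.9, 36.8 and 51.1 CPM in the descending libraries (log2 fold change -3.24 ± 0.14, adjusted p = 4.3e-09). Epha3, an ephrin receptor, was at 18.3, 15.7, 23.4 and 22.7 CPM against 89.7, 77.8, 115 and 118 CPM (-2.32 ± 0.11, adjusted p = 2.1e-08), and Sema3e at 7.21 ± 0.394 against 26.9 ± 4.25 CPM (-1.89 ± 0.12). Ephb6 (20.8 ± 1.27 against 9.62 ± 0.46 CPM), the semaphorin coreceptor Nrp2 (28.2 ± 4.09 against 12.7 ± 2.08 CPM) and the Slit receptor Robo1 (12.1 ± 3.91 against 4.45 ± 1.02 CPM) were higher in the ascending aorta. In each of these 6 genes the ascending and the descending libraries were apart.

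**Figure D4:**
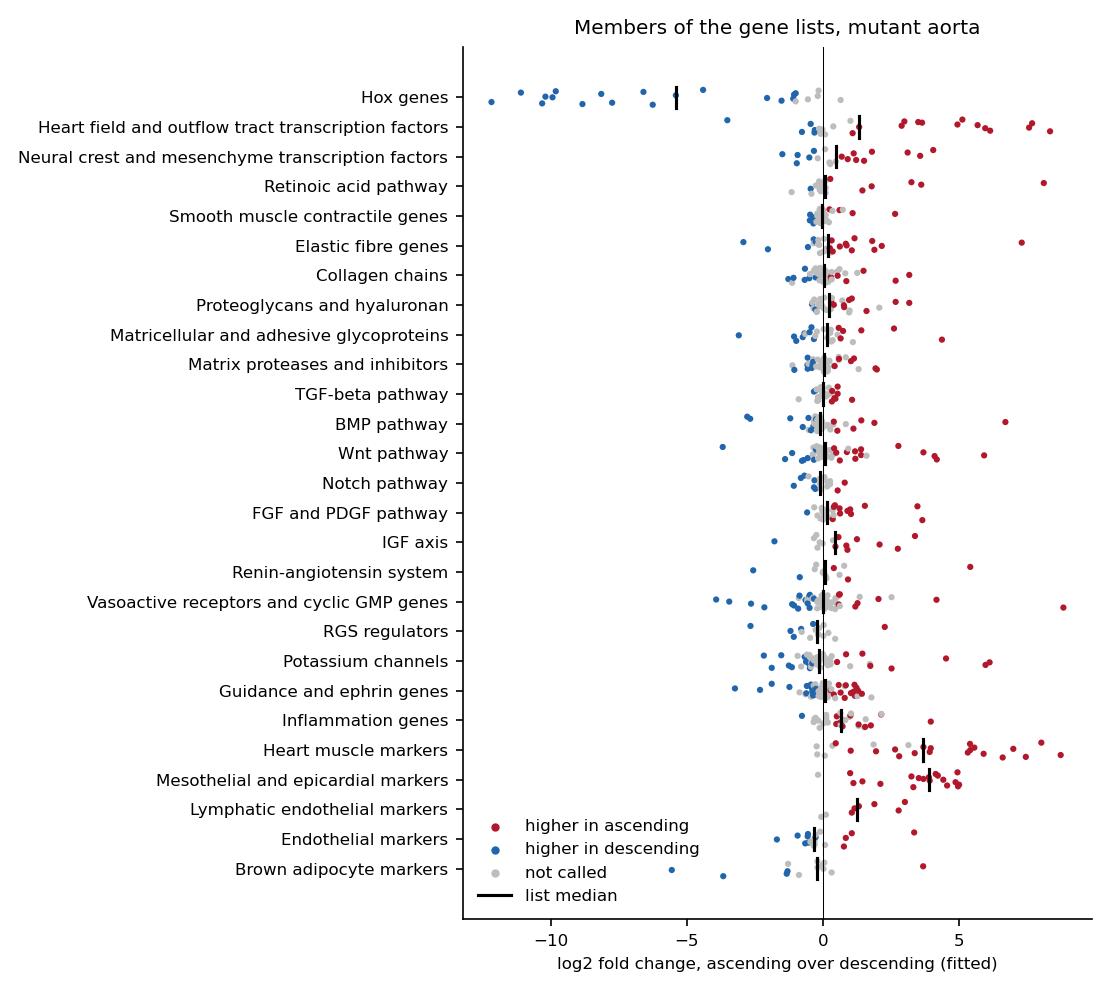
Fitted log2 fold change, ascending over descending, of the tested members of 27 gene lists. Red points were called higher in the ascending aorta, blue points higher in the descending aorta, grey points were not called, and the black bar is the list median. Hox genes lie far to the left, heart muscle and mesothelial markers to the right, and smooth muscle contractile genes around 0.

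Of 32 inflammation genes, 11 were higher in the ascending and 1 in the descending aorta (median 0.67, 37.5% called). The ascending count was 7 without mouse 2, and the descending count 0 without mouse 3, 4, 6 or 8. Vcam1, an adhesion molecule, was at 416, 319, 319 and 322 CPM against 178, 137, 173 and 199 CPM (1.00 ± 0.12, adjusted p = 0.00015), and complement C3 at 602 ± 199 against 174 ± 29.2 CPM (1.75 ± 0.24). Lcn2 (6.64 ± 5.08 against 1.4 ± 0.712 CPM), the oncostatin M receptor Osmr (85.8 ± 7.47 against 61.6 ± 6.75 CPM) and the chemokine Cx3cl1 (39.5 ± 3.9 against 24.6 ± 4.17 CPM) had the same direction. Of 32 immediate early and heat shock genes, 11 were higher in the ascending and 1 in the descending aorta (median 0.27, 37.5% called). Yet none of the 32 was apart between the regions, against 14.4% of all genes tested. The fit without the replicate block called 0 of them. Without mouse 6 the ascending count was 6, without mouse 8 it was 7, and the descending count was 0 without any 1 of the 4 mutant mice. Cell cycle genes gave 2 ascending calls of 36 (median 0.46), and 1 without mouse 2 or mouse 6. That share, 5.56%, was below the 14.8% of all genes tested.

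Markers of tissues that adjoin the aorta moved with region. Heart muscle markers were higher in the ascending aorta for 19 of 25 tested and in the descending aorta for 0 (median 3.68, 76% called). Tnnt2, cardiac troponin T, was at 128, 137, 161 and 225 CPM in the ascending and 4.61, 3.57, 3.74 and 3.36 CPM in the descending libraries (log2 fold change 5.39 ± 0.30, adjusted p = 9.2e-06). Myh6, the atrial heavy chain, was at 20.5, 12.2, 46.8 and 114 CPM against 0.337, 2.21, 0.374 and 0.78 CPM, and Myl7, an atrial light chain, at 14.9, 12.2, 13.3 and 29.6 CPM against 0.0562, 0, 0.374 and 0.0974 CPM. Mb, myoglobin, was highest in mouse 8, at 5.81, 3.16, 5.4 and 29.8 CPM, against 0.169, 0.0567, 0.16 and 0.0487 CPM in the descending libraries. Myl3 had 1 descending count against 399 ascending counts (ratio 372, exact 95% interval 66.4 to 14730), Mybpc3 was at 8.19 ± 7.37 against 0.196 ± 0.0968 CPM, and Ttn did not pass (3.13 ± 0.85, adjusted p = 0.055). The summed level of all 26 heart muscle markers was 1415 to 1881 CPM in the ascending and 827 to 1091 CPM in the descending libraries, and none of them was at 0 in all 8. Of 19 markers of mesothelium and epicardium, the lining cells of the pericardium and pleura, 18 were higher in the ascending and 0 in the descending aorta. The list had a median of 3.88 with 94.7% called. Their summed level over 20 genes was 597 to 940 CPM against 67.8 to 89.2 CPM. Gpm6a was at 83.6, 82.4, 77.5 and 77.2 CPM in the ascending and 9.73, 7.03, 7.53 and 8.19 CPM in the descending libraries (3.31 ± 0.12, adjusted p = 1.2e-09), Bnc1 at 13.3 ± 3.91 against 0.42 ± 0.132 CPM and Cldn15 at 34.3 ± 8.38 against 12.4 ± 0.723 CPM. The part of these tissues in the differences of other genes, such as the GATA factors, Hand2, Tcf21, Aldh1a2, Rspo1, Des, Pln and Chrm2, was not tested.

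Of 8 lymphatic endothelial markers, 6 were higher in the ascending and 0 in the descending aorta (median 1.23, 75% called). Among them were the lymphatic master factor Prox1 (6.88, 6.2, 9.82 and 6.91 CPM against 0.956, 0.737, 1.33 and 1.32 CPM), its receptor target Flt4 (30.1 ± 5.3 against 12 ± 0.766 CPM) and the peptide gene Nts (7.49 ± 2.36 against 0.92 ± 0.308 CPM). Summed levels of the list, 886 to 1061 CPM against 826 to 883 CPM, did not overlap, and Ccl21a was at 0 in all 8 libraries. General endothelial markers went both ways, with 4 of 20 higher in the ascending and 7 in the descending aorta (median -0.32, 55% called). The descending count was 3 without mouse 6 and 2 without mouse 8. Kdr, the main VEGF receptor, was at 56.7, 45.5, 47.6 and 43 CPM in the ascending and 4.95, 3.85, 5.5 and 4.63 CPM in the descending libraries (log2 fold change 3.34 ± 0.24, adjusted p = 1.2e-05). Flt1 (56.7 ± 6.39 against 33.5 ± 5.08 CPM, 0.76 ± 0.15) and the sialomucin gene Emcn (45.6 ± 8.22 against 21.8 ± 1.54 CPM, 1.05 ± 0.13) shared that direction. Ptprb, a vascular phosphatase (384 ± 74.1 against 728 ± 60.6 CPM, -0.94 ± 0.15), and the arterial factor Sox17 (14.8 ± 2.73 against 23.3 ± 2.26 CPM, -0.66 ± 0.14) were higher in the descending aorta. The summed endothelial level was 2031 to 3130 CPM in the ascending and 3259 to 3755 CPM in the descending libraries.

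Brown adipocyte markers were higher in the descending aorta for 4 of 13 and in the ascending aorta for 1 (median -0.21, 38.5% called). Ucp1, the uncoupling protein of brown fat, was at 0.0427, 0.163, 0.327 and 0.3 CPM against 15.3, 4.7, 6.46 and 12.4 CPM (log2 fold change -5.56 ± 0.78, adjusted p = 0.0022), Cidea at 6.44 ± 1.02 against 16.6 ± 5.2 CPM and Ebf2 at 5.59 ± 0.902 against 13.9 ± 2.93 CPM, while Prdm16 did not pass (-0.21 ± 0.10). The summed level was 221 to 270 CPM against 259 to 360 CPM. Log2 fold changes of the list ran from -5.56 to 3.67, and its ascending call is not named here. Of 20 fibroblast and adventitial markers, 4 were higher in the ascending and 5 in the descending aorta (median -0.11, 45% called). The descending count was 3 without mouse 6 or mouse 8. Dpp4 was higher in the ascending aorta (45.3 ± 7.38 against 14 ± 3.02 CPM, 1.70 ± 0.13) and Pcolce2, an enhancer of procollagen processing, in the descending aorta (103 ± 6.7 against 213 ± 13.5 CPM, -1.06 ± 0.09). Their summed level, 7573 to 8940 CPM against 6968 to 9424 CPM, overlapped. Of 7 melanocyte markers tested, 2 were higher in each region (57.1% called). Dct, an enzyme of pigment synthesis, was at 0.299, 0.163, 6.39 and 0.751 CPM in the ascending libraries, most of it in mouse 6, and had 1 descending count. Oca2 was at 0 in all 8 libraries, and the list's summed level was 38.0 to 53.6 CPM against 56.2 to 69.4 CPM. Its 2 descending calls are not named here, and its median log2 fold change was -0.16. Among 14 Schwann cell markers 2 were higher in the ascending and 1 in the descending aorta (21.4% called, against 14.8% of all genes tested). The ascending call was 1 without mouse 6 or mouse 8. Mbp, myelin basic protein, was higher in the ascending aorta (14.6 ± 1.33 against 5.79 ± 1.19 CPM), and the marker called in the descending aorta is not named here. The list had a median of 0.08, and its summed levels overlapped (357 to 438 against 374 to 473 CPM). Of 17 neuron markers only 6 passed the count filter. Of these, 4 were higher in the ascending and 0 in the descending aorta (66.7% called). There was 1 descending call without mouse 4. Uchl1 (170 ± 20.1 against 87.9 ± 8.43 CPM) held most of their summed level, 171 to 229 against 94.9 to 114 CPM. Of 20 macrophage markers, 2 were higher in the ascending and 0 in the descending aorta (median 0.04). That share, 10%, was below the 14.8% of all genes tested. The ascending count was 1 without mouse 2 or mouse 4, and the descending count 2 without mouse 5.

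The calls of lymphocyte markers were lost without mouse 2, and the count of thymus markers moved with mouse 2 and with mouse 3. Lymphocyte markers were higher in the ascending aorta for 5 of 17 (29.4% called), but for 0 without mouse 2 and for 2 without mouse 4. Thymus markers were higher for 2 of 6 (33.3% called), for 1 without mouse 2 and for 4 without mouse 3. Dntt, the terminal transferase of immature lymphocytes, was at 23.4, 2.67, 2.46 and 0.551 CPM in the ascending and 4.83, 0.737, 0.587 and 0.244 CPM in the descending libraries (2.02 ± 0.31, adjusted p = 0.00038). Its log2 fold change was 1.79 without mouse 2, and it was not called without the replicate block. Lck, a T cell kinase, was at 24, 3.26, 3.06 and 1.05 CPM against 5.9, 0.85, 1.55 and 0.633 CPM, and its call was lost without mouse 2 (adjusted p = 0.14) or mouse 4 (0.085). Both regions of mouse 2 were thus the highest of their group. The summed thymus level was 5.91 to 92.9 CPM against 4.43 to 28.8 CPM, and the thymic epithelial genes Foxn1 and Psmb11 were at 0 in all 8 libraries. The part of the thymus in other differences was not tested.

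The remaining marker lists gave at most 2 calls each, and the shares called lay on both sides of the 14.8% of all genes tested. They were 33.3% for airway and lung epithelial, 18.2% for mast cell and neutrophil and 10% for skeletal muscle markers. White and common adipocyte markers had 5.56% and red blood cell markers 0%. White and common adipocyte markers gave 1 descending call of 18 (median -0.92), and 0 without mouse 1, 3, 4, 5 or 6, with a summed level of 633 to 1125 CPM in the ascending and 822 to 1820 CPM in the descending libraries. Mast cell and neutrophil markers gave 1 call in each direction of 11, and 3 in the ascending aorta without mouse 2 (38.6 to 51.8 against 32.2 to 65.1 CPM). Skeletal muscle markers gave 1 ascending call of 10, and 2 without mouse 1 or mouse 3 (12.5 to 33.3 against 8.43 to 11.8 CPM, with Myh8, Myod1, Myog and Tnnc2 at 0 in all 8 libraries). Airway and lung epithelial markers gave 2 ascending calls of 6, and 1 without mouse 3, 4 or 6 (4.31 to 8.21 against 2.14 to 3.12 CPM, with Lamp3, Nkx2-1 and Sftpc at 0 in all 8 libraries). Red blood cell markers gave 0 calls of 7, but 1 descending call without mouse 1 and 5 without mouse 3 (219 to 658 against 310 to 1379 CPM). The part of these tissues in other differences was not tested.

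Some genes with the largest differences or the smallest p were on none of these lists. Pde1c, a cyclic nucleotide phosphodiesterase, was at 22.8, 25.2, 38.8 and 48.7 CPM in the ascending and 0.787, 0.623, 0.587 and 0.877 CPM in the descending libraries (log2 fold change 5.53 ± 0.20, adjusted p = 2.9e-10). Nell2, a secreted protein of the nervous system, was at 10.3, 7.56, 5.89 and 8.31 CPM against 0.0562, 0.0567, 0.214 and 0.146 CPM (5.97 ± 0.32). Atp1b1, a beta subunit of the sodium pump, was at 50.2, 43.1, 57.2 and 56.7 CPM against 16.5, 13.8, 21.1 and 19.9 CPM (1.55 ± 0.07, adjusted p = 2.7e-09). In the descending direction, Slc26a4, the anion exchanger pendrin, had 2 ascending against 452 descending counts, a ratio of 242 with an exact 95% interval of 66.7 to 2007. Vwc2, a secreted BMP-binding protein gene, was at 33.2, 36.1, 31.5 and 25.6 CPM against 80.4, 110, 97.9 and 84.3 CPM (-1.56 ± 0.08, adjusted p = 1.1e-08). Vstm2b (0.439 ± 0.181 against 11 ± 3.07 CPM, -4.65 ± 0.23) and Aknad1 (1.29 ± 0.479 against 15.4 ± 3.63 CPM, -3.57 ± 0.18) were also apart in every library.

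The wild-type littermates allow the regional difference itself to be compared between genotypes. The same contrast called 2424 genes in wild-type mice, and 1524 genes were called in both genotypes in the same direction, 65.7% of the mutant and 62.9% of the wild-type calls. Of the 2321 genes called in mutant mice, 2203 had the same sign in wild-type mice. Among Hox genes, the wild-type log2 fold changes of Hoxa7 (-6.82 ± 0.22) and Hoxa5 (-2.40 ± 0.12) were of the same order as in mutant mice. The same held for Gata4 (8.03 ± 0.22) and Rgs5 (-2.31 ± 0.10). The test of the difference itself, mutant minus wild-type log2 fold change, called 13 genes (0.0831% of those tested), none of them a Hox gene. At an unadjusted p under 0.05 there were 1396. The number moved with the settings, from 1 (Kcnj15) without the replicate block and 2 with the contractile genes as the scale to 101 in DESeq2 and 428 with no count filter, and from 6 to 46 when 1 mouse was left out.

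Kcnj15 had the largest of these differences. Its regional log2 fold change was 5.96 ± 0.18 in mutant and 2.03 ± 0.11 in wild-type mice, a difference of 3.93 ± 0.22 (adjusted p = 5.2e-06). The wild-type libraries were at 172, 167, 204 and 179 CPM in the ascending and 50.2, 39.1, 61.2 and 30.4 CPM in the descending aorta. Mutant libraries were thus below wild-type libraries in both regions, and proportionally more so in the descending aorta. Lox encodes lysyl oxidase, which cross-links elastin and collagen, and its regional difference had opposite signs in the genotypes. It was higher in the ascending aorta of all 4 mutant mice (718, 402, 395 and 422 CPM against 511, 317, 333 and 343 CPM, 0.35 ± 0.07) and lower there in all 4 wild-type mice (465, 310, 349 and 344 CPM against 519, 398, 431 and 406 CPM, -0.27 ± 0.07). The difference was 0.61 ± 0.09 (adjusted p = 0.023), and it was not called without mouse 2, 4, 5, 6 or 8 (adjusted p up to 0.13). Serpini1, neuroserpin, reversed in the same way (0.30 ± 0.06 against -0.36 ± 0.06, difference 0.66 ± 0.08, adjusted p = 0.0064).

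Ednra, the endothelin A receptor gene, reversed in the other direction. It was at 9.44, 7.67, 14.3 and 14 CPM in the ascending and 12, 13.3, 20.7 and 17.8 CPM in the descending aorta of mutant mice, and at 13.5, 12.4, 19.9 and 17.2 CPM and 8.16, 5.79, 7.4 and 11.1 CPM in wild-type mice. Its log2 fold change was -0.50 ± 0.13 against 0.96 ± 0.13, with a difference of -1.46 ± 0.18 (adjusted p = 0.0064). The mutant fold change alone was not called without mouse 4 (adjusted p = 0.1) or mouse 6 (0.07). Cilp2, a cartilage matrix protein gene, showed the same reversal (-0.50 ± 0.14 against 0.91 ± 0.13, difference -1.41 ± 0.19, adjusted p = 0.0064). Its mutant fold change alone was not called without mouse 4, 6 or 8 (adjusted p up to 0.12).

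For the remaining genes the sign was shared or 1 genotype was close to 0. Rgs17 differed between the regions in mutant (-1.20 ± 0.12) and hardly in wild-type mice (-0.05 ± 0.14). Sema3e (-1.89 ± 0.12 against -0.68 ± 0.14) and the cytochrome gene Cyp4b1 (-1.96 ± 0.14 against -0.84 ± 0.13) had larger differences toward the descending aorta in mutant mice. Tnc (-0.75 ± 0.10 against -1.65 ± 0.10) and the ATP-gated channel gene P2rx1 (-0.57 ± 0.07 against -1.26 ± 0.07) had smaller ones. Hmcn1 (1.80 ± 0.21 against 3.78 ± 0.23), the adhesion molecule gene Sdk2 (1.69 ± 0.14 against 3.35 ± 0.16) and Tnfrsf11b, osteoprotegerin (0.27 ± 0.07 against 1.19 ± 0.07), had smaller differences toward the ascending aorta. Adjusted p of these differences ranged from 0.0015 for Tnfrsf11b to 0.046 for Cyp4b1. Those of Sdk2 and Tnfrsf11b were called whichever mouse was left out, as were those of Kcnj15, Serpini1, Ednra and Cilp2. The differences of Hmcn1 (adjusted p up to 0.14), Rgs17 (up to 0.13), Sema3e (up to 0.1), Tnc (up to 0.14), P2rx1 (up to 0.12) and Cyp4b1 (up to 0.19) were lost without at least 3 of the 8 mice each. The mutant fold change of Tnfrsf11b alone was not called without mouse 2 (adjusted p = 0.061) or mouse 8 (0.077).

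**Figure D5:**
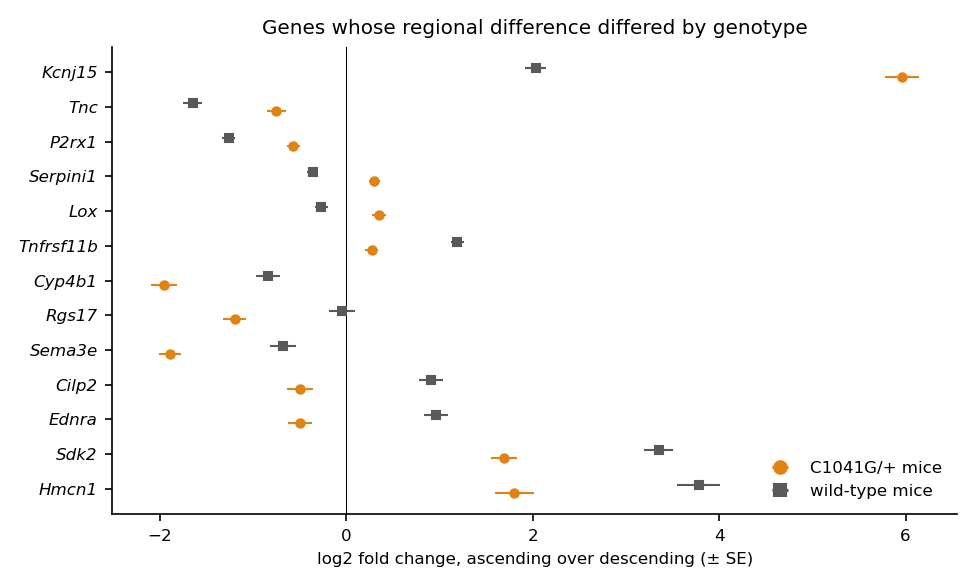
Regional log2 fold change (ascending over descending, ± standard error) of the 13 genes whose regional difference differed between genotypes. Orange circles are C1041G/+ mice and grey squares wild-type mice (4 mice each). Lox, Serpini1, Ednra and Cilp2 lie on opposite sides of 0 in the 2 genotypes, and Kcnj15 has the widest gap, 5.96 against 2.03.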

How the data were processed

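Gene counts were deposited for every library as whole numbers per Ensembl gene, with no normalization by the authors. Reads had been handled with fastp and STAR 2.6.1d against mm10, per the submitters' processing notes. The counting tool, its strand setting and the annotation are not named in what was used here. Gene names were taken from GENCODE M21 (GRCm38). Libraries were grouped by the genotype, region and treatment in the labels.

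The 16 untreated libraries were fitted together with edgeR 4.0.16 in R 4.3.3 (quasi-likelihood F test, TMM factors, filterByExpr), with mouse as a block and region within genotype, which left 6 residual degrees of freedom. The mutant region term and its difference from the wild-type term were tested over 15645 genes, with Benjamini-Hochberg adjustment at 0.05. The pairing comes from the number in the library names: deviations of same-numbered libraries from their group means correlated in all 8 pairs, at 0.145 to 0.286, so the numbers were taken to pair the libraries.

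Alternatives were no replicate block, mutant libraries only, other scalings, other count filters, DESeq2 1.42.0 and leaving out each mouse. Calls of at least 2-fold were counted within each fit. Genes removed by the filter were compared with an exact permutation test. For a region with 0 counts the fold is a bound against 3 counts. For 1 to 3 counts the ratio has an exact 95% interval.

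Genes named are Fbn1, the Hox genes that passed the filter, Agt and the angiotensin receptors; in each direction the 12 largest folds and 10 smallest p among called genes of at least 5 CPM in 1 region, apart between regions and of the same direction in all 4 mice; a selection of the up to 5 called members of smallest p per direction and up to 2 members that did not pass in each list; and the genes called between genotypes. Members and lists were chosen with earlier results of these data known. The antisense libraries entered no fit. Some genes that the rule gives are not reported here.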

Additional observations from a re-analysis of the deposited data

Results flagged for a closer look

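Among 409 sets of 4 values (the genes named and the marker sums, in each region of the mutant mice), 39 held a library that stood apart from the other 3, by the 95% critical value of Dixon's test of the gap over the range. Chance flags about 1 in 20 such sets. Each value is a CPM, followed by the range of the other 3 libraries. The causes were not tested. The ascending library of mouse 2 was high for Lox 718 against 395 to 422, Col8a1 83.2 against 60.6 to 64.5, Spp1 182 against 21.8 to 45.7, Bmp7 2.35 against 0.873 to 0.979, Igfbp7 5443 against 4597 to 4689, Ereg 38.7 against 31.6 to 32.7, Vcam1 416 against 319 to 322, Lck 24 against 1.05 to 3.26, Dntt 23.4 against 0.551 to 2.67 and the thymus markers 92.9 against 5.91 to 13.7, and low for Vstm2b 0.171 against 0.491 to 0.551. The ascending library of mouse 4 was high for Hoxb7 0.0544 against 0, Hoxa10 0.381 against 0.0546 to 0.1, Hoxa3 31.1 against 19.3 to 20.5, Adra1d 32.7 against 20.1 to 21.9 and Sox17 18.9 against 13 to 13.8. The ascending library of mouse 6 was high for Ren1 24.8 against 12.1 to 12.6, Agtr1b 0.655 against 0.401 to 0.435 and Dct 6.39 against 0.163 to 0.751, and low for Dll4 3.11 against 3.35 to 3.37. The ascending library of mouse 8 was high for Myl7 29.6 against 12.2 to 14.9 and Mb 29.8 against 3.16 to 5.81, and low for Stra6 1.35 against 2.56 to 2.67. The descending library of mouse 2 was high for Gata4 0.337 against 0.0534 to 0.0974, Lox 511 against 317 to 343, Emcn 24.1 against 20.9 to 21.3, Dntt 4.83 against 0.244 to 0.737, the thymus markers 28.8 against 4.43 to 6.51, the mast cell and neutrophil markers 65.1 against 32.2 to 35.6 and the red blood cell markers 1379 against 310 to 483, and low for Kcne4 39.5 against 55.6 to 57.6 and Cyp4b1 17.1 against 22.8 to 23.8. The descending library of mouse 4 was high for Hoxb6 35 against 27.8 to 28.7, Hoxb3 12.8 against 6.57 to 7.14 and Myl3 0.0567 against 0, and low for Wt1 0.17 against 0.48 to 0.506. The descending library of mouse 6 was low for Spp1 2.24 against 2.48 to 2.53. The descending library of mouse 8 was high for Dct 0.0487 against 0, and low for Tfap2a 0 against 0.107 to 0.113. For Hoxb7, Myl3 and the descending value of Dct the level is that of a single read.

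The regional log2 fold change differed between mutant and wild-type mice in 13 genes, by edgeR's interaction test with Benjamini-Hochberg adjustment. The difference, mutant minus wild type, was positive for Kcnj15 (3.93), Tnc (0.89), P2rx1 (0.68), Serpini1 (0.66) and Lox (0.61). It was negative for Tnfrsf11b (-0.91), Cyp4b1 (-1.12), Rgs17 (-1.16), Sema3e (-1.21), Cilp2 (-1.41), Ednra (-1.46), Sdk2 (-1.67) and Hmcn1 (-1.97).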

How the results depend on the processing

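The number of genes called between the regions stayed between 1552 and 2909 under the 15 other settings of scaling, filter, block, tool and mice, against 2321. Genes higher in the descending aorta numbered 905, against 549 without the replicate block, 575 with the contractile genes as the scale and 582 to 971 when 1 mouse was left out. The genes whose regional difference depended on genotype numbered 13, against 1 without the replicate block, 2 with the contractile scale, 428 with no count filter, 101 in DESeq2 and 6 to 46 when 1 mouse was left out. The causes were not tested. Of 178 named genes called in mutant mice, 164 kept their call and direction under each of these 15 settings that tested them. The call was lost under at least 1 for 14, and none reversed. Settings whose filter removed a gene do not count for it. Without the replicate block, calls were lost for Cacna1c (adjusted p = 0.13 in edgeR), Lox (0.34), Tgfb2 (0.11), Tgfb1 (0.054), P2rx1 (0.076), Cx3cl1 (0.1), Dct (0.054), Dntt (0.37), Lck (0.35), Serpini1 (0.23), Ednra (0.26), Cilp2 (0.36) and Tnfrsf11b (0.51). List counts in the ascending and descending aorta also moved without it: collagen chains from 7 and 6 to 3 and 5, elastic fibre genes from 12 and 5 to 10 and 2, guidance genes from 15 and 13 to 13 and 6, the TGF-beta pathway from 7 and 2 to 3 and 0, contractile genes from 4 and 4 to 2 and 0, heart field factors from 14 and 5 to 13 and 2, and lymphocyte markers from 5 to 1 and thymus markers from 2 to 0 in the ascending aorta. Acta2, which was not called, had a log2 fold change of -0.003, and 0.002 in the mutant libraries alone, 0.032 with the contractile scale and -0.07 to 0.059 when 1 mouse was left out. Depth limits what can be said of genes near 0, since 3 counts over a group are 0.0402 CPM in the descending and 0.0375 CPM in the ascending aorta.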

Other observations

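The 10 libraries of antisense-treated mutant mice are all of ascending aorta and entered none of the tests. For each gene with at least a 2-fold call, the median of their levels was set against the midpoint between the ascending and the descending mean of the untreated mutant mice, on a log scale. Of the 718 genes higher in the ascending aorta, the median of the 5 control ASO libraries lay on the ascending side for 584 (81.3%) and that of the 5 AGT-ASO libraries for 497 (69.2%). Of the 260 genes higher in the descending aorta, it lay on the ascending side for 224 (86.2%) and 227 (87.3%). The 2 antisense groups were not tested against each other here, and they differ from the untreated mice in treatment. Mitochondrial genes took 5.52 to 11.1% of the counts in the control ASO, 3.76 to 7.0% in the AGT-ASO and 2.51 to 3.31% in the untreated mutant libraries, and their part in these shares was not tested.

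Msc, a helix-loop-helix factor gene, and Psmd8, a proteasome subunit gene, were called in opposite directions in the 2 genotypes, and were singled out after their values were seen. Msc had a log2 fold change of -1.49 ± 0.45 in mutant and 1.65 ± 0.38 in wild-type mice, and the difference of -3.14 ± 0.59 did not pass (adjusted p = 0.068, edgeR). Psmd8 had 0.26 ± 0.06 and -0.20 ± 0.06, and its difference of 0.47 ± 0.09 did not pass (adjusted p = 0.082, edgeR).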
